A study of Mus musculus with 6 samples.

Results

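The regions described here were the exonic intervals of Ago2-bound RNA whose sequence held a seed site of miR-221 and miR-222. RISC-IP RNA of MSC myocytes was sequenced in 6 libraries, and the authors listed the peaks of each library. Overlapping or touching peaks of 5 libraries were joined into 41363 intervals. In 37545 of these the overlapped GENCODE M21 exons lay on 1 strand, and 943 of the 37545 (2.51%) held on that strand the 7-mer complementary to bases 2 to 8 of miR-222-3p. The rule used sequence and position only, and no score of any library. The 943 intervals held 982 sites, because 35 intervals had 2 sites and 2 had 3.

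MSC are primary satellite cells of the mouse, the muscle progenitors that fuse into fibres. Differentiation medium was given for 30 h before transfection with miR-222 or with a siGFP duplex as control, and for 16 h afterwards. The duplex concentration was 10 nM in the sample labels and a higher one in the methods of the study. Libraries are numbered as replicates within their group. Control-IPs 1 and 2 were made with miR-222-IP 1 in one experiment, and control-IPs 3 and 4 with miR-222-IP 2 in another. No strain, age or genotype was labelled, and nothing states whether replicates within an experiment came from separate cultures, so that p-values measure only the spread between these libraries.

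A miRNA held by Ago2 in the RNA-induced silencing complex (RISC) pairs with target mRNAs mainly through its seed, the bases at the start of the miRNA. Sites in the 3'UTR are the best known and lead to repression or decay of the mRNA, and a target base A opposite the first miRNA base gives the strong 8-mer site. The miR-221 and miR-222 genes lie together on the X chromosome and share their seed. The pair is known for repressing the CDK inhibitors p27 (Cdkn1b) and p57 (Cdkn1c), and its level falls when myoblasts differentiate. The RefSeq mature sequences are shown 5′ to 3′ with the seed, bases 2 to 8, in capitals:
miR-222-3p: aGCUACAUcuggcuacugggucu
miR-221-3p: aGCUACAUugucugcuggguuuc
Both miRNAs are 23 nt long, the first 8 bases are the same in both, and 11 of the 23 positions are alike. A seed site cannot be assigned to one of them and is called a miR-222 site here. On the target the 7-mer reads ATGTAGC. For comparison the 7-mers ACATTCC (miR-206), GGACCAA (miR-133) and CTACCTC (let-7) were searched in the same way, on the transcript strand only.

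The sites below are those of genes known as miR-222 targets or chosen by the study for follow-up. Each line gives the 15 target bases before the 7-mer, the 7-mer and the next base on the transcript strand of GRCm38 (RefSeq sequence), and the coordinates are those of the 7-mer. Capitals mark the 7-mer, and also the final A where the site is an 8-mer.
Cdkn1c 3'UTR, chr7:143458926-143458932, minus strand: tgggacctttcgttcATGTAGCA
Ets1 3'UTR, first site, chr9:32756950-32756956, plus strand: gtttatacactggaaATGTAGCA
Ets1 3'UTR, second site, chr9:32757612-32757618, plus strand: tgaggtagcttagagATGTAGCg
Bmf 3'UTR, chr2:118528945-118528951, minus strand: gggagacccagcgagATGTAGCA
Sod2 3'UTR, chr17:13016926-13016932, plus strand: attcatatgagtgcaATGTAGCt
Rbm24 3'UTR, first site, chr13:46429723-46429729, plus strand: tacggagtgagcaatATGTAGCt
Rbm24 3'UTR, second site, chr13:46430537-46430543, plus strand: attcagtaggtctagATGTAGCA
Chrng 3'UTR, chr1:87212284-87212290, plus strand: tggtttccagcacccATGTAGCA
Myo10 3'UTR, chr15:25813075-25813081, plus strand: tcggtttcgttttacATGTAGCt
Ahnak coding sequence, chr19:9003101-9003107, plus strand: cagatgtagacttaaATGTAGCt
Tceal9, coding sequence or UTR by transcript, chrX:136246675-136246681, plus strand: ccttacccctatttaATGTAGCt

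The lists give the position of each peak and its −log10 p, called the score here, with a smallest value of 20.0. The number of reads was not used here, so the depth is unknown, and a score rises with depth as well as with enrichment. Control-IP 3 stood apart. It had 3619 peaks with a median width of 32103 bp, whereas the other libraries had 10579 to 37762 peaks with medians of 362 to 411 bp. Its list also ended on chromosome 18 and had peaks on 10 of the 21 main chromosomes. The other 5 libraries, 3 control-IPs and 2 miR-222-IPs, were therefore used, and control-IP 3 is given apart. Among these 5 the longest list was that of miR-222-IP 2.

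The cell type label was checked against marker genes. Of 12 muscle markers, 6 to 8 had an exonic peak in the control-IPs and in miR-222-IP 1, and 11 had one in miR-222-IP 2. Myod1, a transcription factor that sets muscle fate, had scores of 27.4, 22.3 and 26.8 in control-IPs 1, 2 and 4, of 29.2 in miR-222-IP 1 and of 174 in miR-222-IP 2. Peaks of Myog, which drives differentiation, were listed in miR-222-IP 2 alone. The summed muscle marker score was 241 to 402 in the other 4 libraries and 1384 in miR-222-IP 2. All 5 leukocyte markers had a peak in every library, except Ptprc in control-IP 1, with summed scores of 670 to 839. The macrophage gene Adgre1 had scores of 196 to 236. Thus the summed score of the 5 leukocyte markers exceeded that of the 12 muscle markers in 4 of the 5 libraries. The sums cover unlike numbers of genes. In miR-222-IP 2 single scores were 114 to 226 for leukocyte markers and 33.7 to 200 for the 11 muscle markers with a peak. Leukocyte genes thus had high scores in that library too. The part of this in the results on muscle genes was not tested, and the second experiment is therefore given beside the first throughout. Fibroblast markers had a peak for at most 3 of 7 genes, and the 4 adipocyte markers had none.

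**Figure D1:**
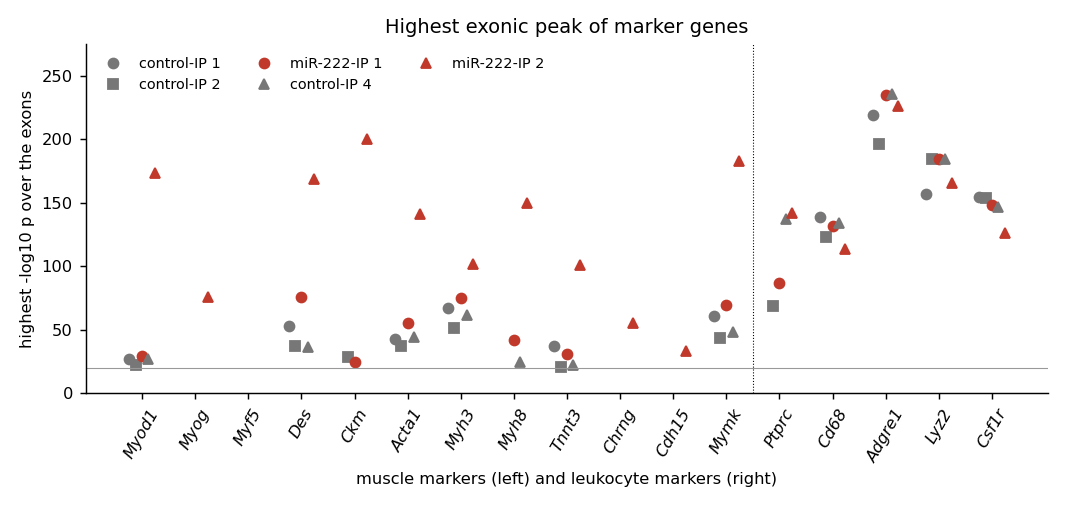
Highest score (−log10 p) of exonic peaks of 12 muscle markers (left of the dotted line) and 5 leukocyte markers (right), one point per library with a peak, with grey points for control-IPs and red points for miR-222-IPs. Circles and squares are the first experiment, triangles the second, and the grey line is the smallest listed score. The muscle scores of miR-222-IP 2 lay above those of the other 4 libraries, whereas the leukocyte scores were alike in most libraries.

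The 3'UTR was the commonest place for a site. Of the 982 sites, 489 (49.8%) lay in a 3'UTR, 195 (19.9%) in coding sequence (CDS), 8 in a 5'UTR, 49 in another exon and 19 in bases that are CDS in one transcript and UTR in another. The others (22.6%) lay under the interval but outside annotated exons, 209 of them in an intron and 13 beyond the gene. The sequence of all exonic intervals was 33.5% 3'UTR and 32.4% CDS. In 3'UTR bases there were 73.6 sites per Mb and in CDS 30.4 sites per Mb. The 7-mers of 3 other miRNA families, counted in the same bases, had 83.8 (miR-206), 62.5 (miR-133) and 70.5 (let-7) sites per Mb of 3'UTR, and 65.2, 86.0 and 90.5 per Mb of CDS. miR-206 shares its seed with miR-1, both are muscle miRNAs like miR-133, and let-7 is expressed in most differentiated cells. Thus 3'UTR sites were about as dense for miR-222 as for these families, and CDS sites were sparser.

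The 3'UTR bases under intervals were not richer in the 7-mer than the 3'UTRs of the same genes. The 9610 protein-coding genes with an exonic interval had 1373 sites in their annotated 3'UTRs, of which 494 (35.98%) lay under an interval, and intervals covered 37.3% of these 3'UTR bases. In CDS 190 of 483 sites (39.3%) lay under an interval, with 36.5% of the bases covered. For the other families the share of 3'UTR sites under an interval was 38.1% (let-7), 40.8% (miR-206) and 41.3% (miR-133). No test was made, since sites are not replicates of a condition. Peaks of control-IPs and miR-222-IPs were pooled here.

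**Figure D2:**
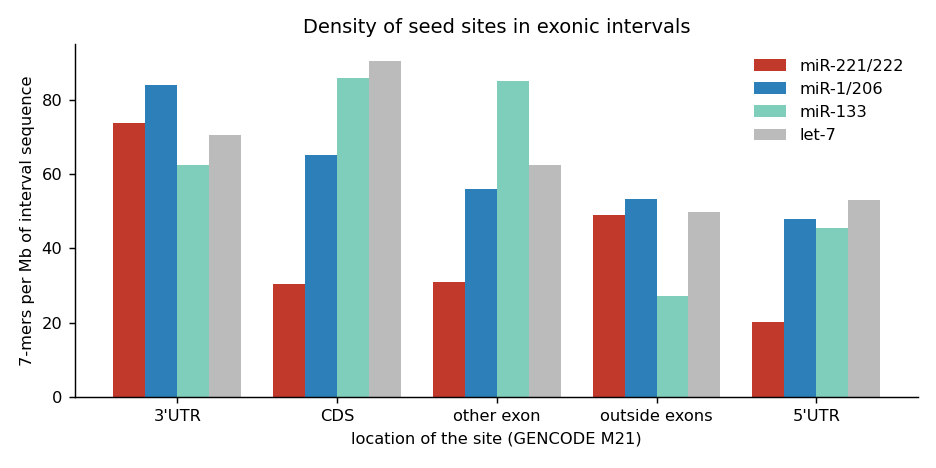
Seed 7-mers per Mb of exonic interval sequence (vertical axis) by location of the site (horizontal axis) for 4 seed families (bars). The red bars of miR-222 are 73.6 per Mb in 3'UTRs and 30.4 per Mb in CDS, the lowest of the 4 families in CDS.

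The base opposite the first miRNA base was A at 308 sites (31.4%), which makes them 8-mers, and C at 287, T at 352 and G at 35. An A here pairs with nothing and is held by Ago2 itself, and T is the base that pairs with the first base of the miRNA. The share of 8-mers was 32.9% in 3'UTRs, 29.7% in CDS and 30.2% outside exons. Of the 943 intervals, 308 (32.7%) had an 8-mer. Bases 13 to 16 of a miRNA can add supplementary pairing. Their complement was present in the 15 bases before the 7-mer at 42 sites (4.28%) for miR-222 and at 52 (5.30%) for miR-221. Among the sites printed above, the second Ets1 and Rbm24 sites and the Ahnak site held that of miR-222. The Chrng site and the first Rbm24 site held that of miR-221. So short a match can arise by chance, no background share was computed, and pairing was not tested. The 30 bases on each side of a site had a median A+T content of 55%. The miR-206 7-mer was also present in 64 of the 943 intervals (6.79%; 5.93% of others of the same widths), that of miR-133 in 35 (3.71%; 5.57%) and that of let-7 in 38 (4.03%; 5.93%).

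Some sites lay in repeats. Soft-masked bases of the RefSeq sequence mark interspersed and simple repeats, and 119 of the 982 sites (12.1%) were wholly masked, against 3.00% of miR-206, 3.498% of miR-133 and 4.58% of let-7 sites in the same intervals. Of all bases of the intervals 10.8% were masked. Outside exons sites were masked less often than bases (10.8% against 15.8%). In 3'UTRs 85 of 489 sites (17.4%) were masked, whereas 14.04% of the 3'UTR bases were. For the other families 1.93 to 6.41% of 3'UTR sites were masked. The share differed by the base opposite position 1, with 21.95% of sites followed by C and 4.87% of 8-mers masked. Without masked bases the miR-222 densities were 70.8 per Mb of 3'UTR and 30.8 per Mb of CDS. In 103 of the 943 intervals every site was masked. Of the 37 intervals with at least 2 sites, 14 had a masked site and 7 had masked sites only, so that 23 of their 76 sites (30.3%) were masked.

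The intervals with most sites illustrate this. In the 3'UTR of Phactr4, a regulator of PP1 and actin, 3 sites followed by C were all masked. Its scores were 82.6 in control-IP 2, 30.8 in control-IP 4, 37.9 and 76.3 in miR-222-IPs 1 and 2, with no peak in control-IP 1. In the 3'UTR of Gpr155, a membrane protein of the GPR family, 2 of 3 sites were masked and the third was an unmasked 8-mer. Gpr155 scores were 126, 131 and 120 in control-IPs 1, 2 and 4 and 138 and 135 in the miR-222-IPs. The raw scores of the miR-222-IPs were the higher ones, whereas the scaled log2 ratios of Gpr155 were −0.28 and −0.42. Both sites of Pvr, the poliovirus receptor, were masked, and its scores were 34.3 and 28.6 in control-IPs 2 and 4 and 49.9 and 152 in the miR-222-IPs. By contrast the 2 sites of Med13, a Mediator subunit, lay unmasked in CDS, and 1 of them was an 8-mer. The 2 unmasked sites of the glycolytic enzyme Pgk1 lay in the 3'UTR and in the intron before it. Scores of this Med13 interval were 31.8, 44.6 and 37.9 in the control-IPs and 64.4 and 103 in the miR-222-IPs. The interval of Pgk1 had 92.2, 39.4 and 116 in the control-IPs and 115 and 151 in the miR-222-IPs. The raw score was higher in each miR-222-IP than in the control-IPs of its experiment in Gpr155, Pvr, Med13 and Pgk1, and not in Phactr4. After scaling, the log2 ratio was above 0 in both experiments for Med13 (0.41 and 0.85) and in the first only for Pgk1 (0.33 and −0.22).

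The 943 intervals belonged to 885 genes or groups of overlapping genes, 55 of which had at least 2. Tgfbr1, a type I TGF-beta receptor, Atp13a3, a polyamine transporter, and Copa, a COPI coat subunit, had 3 each. By type, 911 were assigned to protein-coding genes and 20 to processed pseudogenes. Reads of the latter can stem from the parent gene. The libraries were prepared with a kit that is not described as keeping the strand, so the strand of an interval is that of its exons. The median width was 721 bp against 370 bp for the other exonic intervals, since a long sequence has more chances to hold a 7-mer. Shares below are therefore set beside the same share over other exonic intervals, weighted to the widths of the compared set in 5 classes.

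The first comparison asked whether more peaks of the miR-222-IPs held the site. In each library the exonic peaks on 1 strand were searched, without merging. The 7-mer was present in 2.74%, 1.98% and 2.27% of the peaks of control-IPs 1, 2 and 4, and in 2.56% and 2.53% of those of miR-222-IPs 1 and 2. Both miR-222-IPs lay within the range of the control-IPs. The mean within-experiment difference (miR-222 minus control) was 0.234 percentage points, with an exact two-sided permutation p of 0.5 within experiments and an adjusted p of 0.933 across 7 tests. By experiment the difference was 0.203 and 0.265 points. These permutations have 6 arrangements and cannot give a p below 0.167.

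When the share of another family in the same library was subtracted, the difference was 0.124 points against miR-206 (exact permutation p = 0.5), 0.333 against miR-133 (p = 0.167, exact, the smallest possible) and 0.195 against let-7 (p = 0.667, exact). Adjusted p was 0.933 for each. The excess over miR-133 was present in both experiments, at 0.158 and 0.508 points. miR-133 sites themselves differed by −0.0991 points. Within 3'UTR bases alone the density of miR-222 sites was 73.8, 67.0 and 67.6 per Mb in control-IPs 1, 2 and 4, and 73.9 and 74.9 per Mb in the miR-222-IPs. Both miR-222-IPs were highest there, by less than the spread between the control-IPs.

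**Figure D3:**
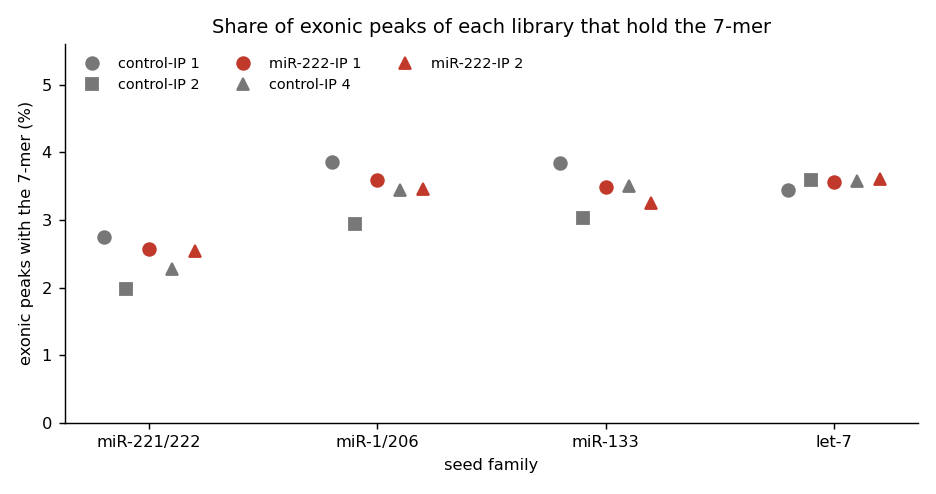
Percentage of exonic one-strand peaks that hold the 7-mer of each of 4 seed families (vertical axis), one point per library. Grey points are control-IPs and red points miR-222-IPs, circles and squares the first experiment and triangles the second. For miR-222 the miR-222-IPs, at 2.56% and 2.53%, lie between control-IPs 2 (1.98%) and 1 (2.74%).

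The second comparison used the libraries in which an interval had a peak. All 5 libraries had a peak in 271 of the 943 intervals (28.7%; 19.5% of all exonic intervals; 29.4% of others of the same widths). The share was thus close to that of others of their width. The only peak was that of miR-222-IP 2 in 23.5% (31.2% of all; 23.4% at the same widths) and that of miR-222-IP 1 in 7 intervals (0.742%; 0.898% of all; 0.644% at the same widths). Control-IPs alone had the peak in 31 (3.29%; 6.13% of all; 3.78% at the same widths). Irrespective of the miR-222-IPs, all 3 control-IPs had a peak in 272 (28.8%; 19.7% of all; 29.6% at the same widths).

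Both miR-222-IPs and no control-IP had a peak in 74 intervals (7.85%), against 6.61% of all exonic intervals and 5.52% of others of the same widths. The same call was made in 72 miR-206 intervals (5.58%, with 5.79% of others of their widths), in 62 miR-133 intervals (5.08%, with 5.84%) and in 63 let-7 intervals (4.63%, with 5.94%). The difference of 2.33 percentage points between intervals with the site and others thus stood against differences below 0 for the other 3 seeds. Among intervals that lay wholly or almost wholly in exons, however, it was also above 0 for miR-206, with 29 of 396 (7.32%) against 5.52%, beside 32 of 361 (8.86%) against 5.12% for miR-222. The excess of intervals with the miR-222 site was present in each width class, from 12.6% against 7.35% in the narrowest intervals (204 to 340 bp) to 5.29% against 2.81% in the widest. Each experiment alone gave the same order against others of the same widths, but not against all exonic intervals. In the first, a peak in the miR-222-IP and in neither control-IP was present in 139 intervals (14.7%; 14.7% of all; 12.5% at the same widths). In the second, 426 intervals (45.2%; 49.2% of all; 41.3% at the same widths) had a peak in the miR-222-IP and not in control-IP 4. The opposite calls were rare where both control-IPs of the first experiment were required (2 intervals, 0.212%; 0.245% of all) and in the second experiment (1 interval, 0.106%; 0.522% of all). With at least 1 control-IP of the first experiment they came to 104 (11.0%; 14.1% of all; 12.3% at the same widths). With intervals whose site was unmasked the share was 7.86% against 5.51%. The difference was 2.02 to 3.44 points when each library was left out in turn and 0.633 points for peaks with a score over 50. It was −0.221 points when control-IP 3 was added within the span of its list. Wide peaks of control-IP 3 overlapped 98.4% of the intervals with the site there. Almost no interval could keep the call, so this value says nothing about the excess.

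The excess was not larger for the stronger sites. For 8-mer intervals the share was 7.47% against 5.47% at the same widths, and for 8-mers in 3'UTRs it was 7 of 161 (4.35%) against 4.64%. For all 3'UTR intervals it was 29 of 462 (6.28%) against 4.56%, for CDS 10 of 193 (5.18%) against 6.26%, and for sites outside exons 22 of 214 (10.3%) against 6.95%. In the 735 genes with both an interval with the site and another exonic interval, 62 of 792 intervals with the site (7.83%) and 382 of 4712 others (8.11%) had this call, without matching for width. By library, a peak was present in 35.5%, 53.4% and 50.8% of intervals with the site in control-IPs 1, 2 and 4 (25.2%, 46.5% and 43.6% of all), and in 62.9% and 95.9% in the miR-222-IPs (51.6% and 92.2% of all). Against others of the same widths these shares differed by −0.216, −3.48 and −3.217 points in the control-IPs and by 0.996 and 0.891 points in the miR-222-IPs. A difference of 7.004 points was found for let-7 intervals in control-IP 2, although no let-7 duplex was given. A peak of the library itself lay over a site in 71.2% (control-IP 2) to 97.9% (miR-222-IP 2) of these intervals. Intervals are not replicates, and no test was made.

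**Figure D4:**
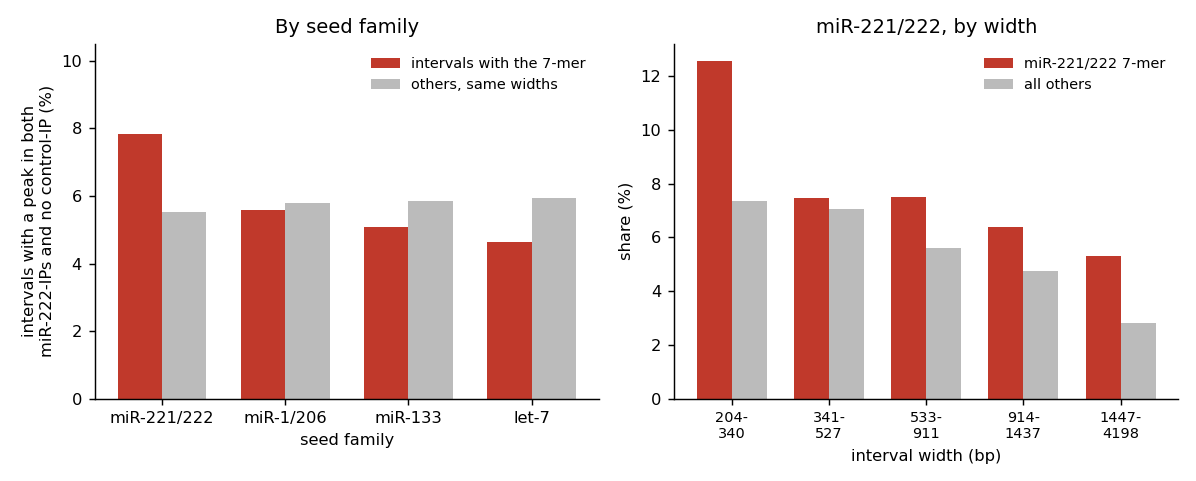
Percentage of exonic intervals with a peak in both miR-222-IPs and in none of 3 control-IPs (vertical axes). Left, intervals with the 7-mer of each seed family (red) beside others of the same widths (grey), 7.85% against 5.52% for miR-222. Right, miR-222 intervals (red) and all others (grey) by interval width in bp, with red above grey in each of the 5 classes. The gap was smallest at 341 to 527 bp (7.45% against 7.07%).

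The scores behind the 74 intervals were low in the first experiment. They ranged from 20.0 to 39.5 with a median of 23.8 in miR-222-IP 1, just above the listed minimum, and from 20.1 to 101 with a median of 41.3 in miR-222-IP 2. For all 2482 intervals with this call the medians were 23.9 and 36.3. Both scores passed 30 in 9 of the 74, and the same count was not made over the 2482. An 8-mer was present in 23 of the 74. The 10 of these with the highest lower score are named here, with values in miR-222-IPs 1 and 2. In Rufy3, a regulator of neuronal polarity, the scores were 34.0 and 44.6. Dock10, a guanine nucleotide exchange factor, had 30.2 and 80.4 with the site in an intron. Tmem39a had 29.9 and 47.3, and Dip2b had 29.7 and 40.1 with an 8-mer in CDS. Mospd1 followed with 28.3 and 59.3 and Chchd3, a mitochondrial inner membrane protein, with 26.9 and 39.9. With a 3'UTR site there were Elmod2, a GTPase-activating protein, with 28.0 and 43.7, Fermt2, the integrin activator kindlin-2, with 26.7 and 48.3, and Kmt2c, a histone methyltransferase, with 26.7 and 27.5. Hsd17b4, a peroxisomal enzyme, had 24.1 and 33.5 with the site in an intron. The sites of Rufy3 and Hsd17b4 were masked. Their higher score was that of miR-222-IP 2 in each case.

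Some of their sites, chosen for differing locations, are shown with the same conventions as above.
Elmod2 3'UTR, chr8:83314078-83314084, minus strand: acttgtaaaattacaATGTAGCA
Fermt2 3'UTR, chr14:45459099-45459105, minus strand: taggaaatggcttaaATGTAGCA
Kmt2c 3'UTR, chr5:25272471-25272477, minus strand: tgtaaacatagagtcATGTAGCA
Dip2b coding sequence, chr15:100203283-100203289, plus strand: ttggatccagagtcaATGTAGCA
Dock10 intron, chr1:80665319-80665325, minus strand: tgttgagctacatagATGTAGCA

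At the other end, 31 intervals had a peak in a control-IP and in no miR-222-IP. The 5 with the highest score were those of Mgat3 (63.3), the pseudogene Gm6493 (50.6), the semaphorin Sema6d (35.0) and the glutamate transporter Slc1a2 (33.6), all in control-IP 2, and of the cyclin Ccnl1 (34.6) in control-IP 1. None of these 5 had an 8-mer, whereas 7 of the 31 had one. Of all 943 intervals, 635 had none.

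The third comparison used the 271 intervals called in every library. The score of the miR-222-IP was divided by the mean of the control-IPs of its experiment, after scaling the libraries by the median of ratios, and is given as log2. Such a ratio of scores is not a fold change in reads, and with 1 miR-222-IP in each experiment it has no replicate check. The median log2 ratio was −0.04 and −0.00 in the 2 experiments in turn, against −0.04 and 0.02 for all 7330 exonic intervals called in each of the 5 libraries. The SD over the 271 intervals was 0.43 and 0.57. Between the 2 control-IPs of the first experiment the SD of the log2 ratio was 0.78. Of the 271, 71 (26.2%; 26.9% of all) were above 0 in both experiments, and 77 (28.4%; 28.5% of all) were below 0 in both. The scaled score exceeded that of each control-IP of its experiment, in both experiments, in 38 intervals (14.02%; 17.3% of all), and lay below each in 49 (18.1%; 18.4% of all). The medians of these intervals and of all exonic intervals thus differed by less than the SD over intervals in each experiment. That SD is the spread of single intervals and not the error of a median, so it cannot decide whether the medians differ. For 8-mers in 3'UTRs (n = 70) the medians were 0.04 and 0.12, and 22 (31.4%, against 26.9% of all) were above 0 in both experiments. For miR-206 intervals, for which no duplex was given, the share was 31.1%, with medians of 0.01 and 0.09. The scaled score exceeded that of each control-IP in both experiments in 8 of the 70 (11.4%, against 17.3% of all). In 12 of the 70 (17.1%, against 18.4% of all) it lay below each.

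**Figure D5:**
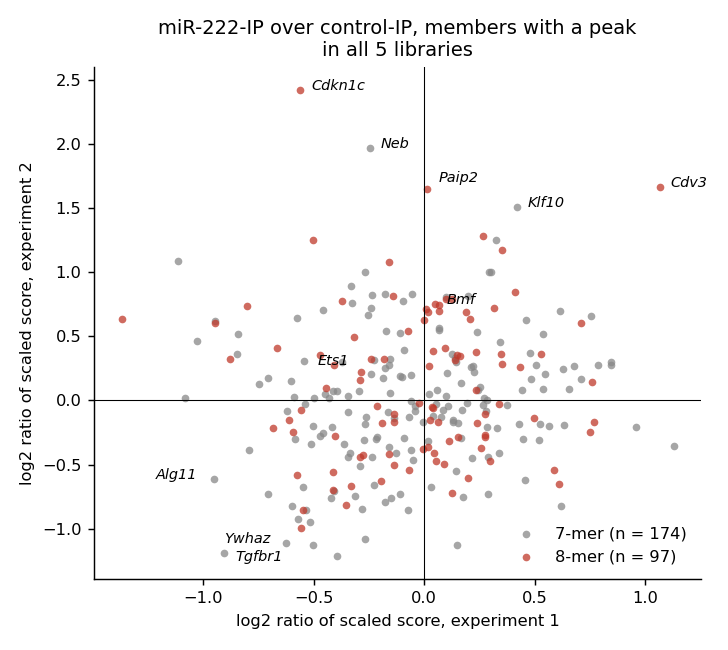
Log2 ratio of the scaled score, miR-222-IP over the mean of the control-IPs, in the first (horizontal) and second experiment (vertical) for the 271 intervals with the site called in every library, with 97 8-mer intervals in red and 174 others in grey. The points spread around the origin, and Cdv3 is high in both experiments, whereas Cdkn1c and Neb are high in the second experiment and below 0 in the first.

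Cdv3 had the largest mean log2 ratio of the 271, at 1.07 and 1.66 in the 2 experiments in turn. Its 3'UTR 8-mer is shown for this reason:
Cdv3 3'UTR, chr9:103353917-103353923, minus strand: ggggaatagtcagtaATGTAGCA
The interval of Cdv3 (chr9:103353129-103354194) had scores of 22.9, 30.3 and 23.6 in control-IPs 1, 2 and 4, and of 71.0 and 113 in miR-222-IPs 1 and 2. Both miR-222-IPs were above all control-IPs. Klf10, a TGF-beta-induced zinc finger factor, followed with scores of 26.0, 37.3 and 23.02 in the control-IPs and 53.4 and 98.9 in the miR-222-IPs (log2 ratios of 0.42 and 1.51). The other 3 of the 5 largest were high in the second experiment only. Those were Cdkn1c, described below, the giant thin-filament protein Neb (27.7, 21.1 and 22.2 in the control-IPs, 27.4 and 131 in the miR-222-IPs) and Paip2, which binds the poly(A)-binding protein (26.8, 54.2 and 24.7, then 50.4 and 117).

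The smallest mean ratio was that of the 3'UTR interval of Tgfbr1 with 2 sites, with scores of 70.0, 78.6 and 63.9 in the control-IPs and 51.2 and 42.2 in the miR-222-IPs (log2 ratios of −0.90 and −1.19). Among the next smallest were the 14-3-3 proteins Ywhaz (−0.63 and −1.11) and Ywhab (−0.50 and −1.13) and the mannosyltransferase Alg11 (−0.95 and −0.61). None of these 4 intervals had an 8-mer, and neither had those of Klf10 and Neb among the largest ratios. Of all 943 intervals, 635 had none. The named intervals were chosen for their values, and the ratios are a description.

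Within genes, intervals with the site were lower than the gene's other intervals. In 132 genes with both kinds called in all libraries, the median difference in log2 ratio (interval with the site minus the others of the gene) was −0.22 and −0.16 in the 2 experiments in turn. Without either control-IP 1 or control-IP 2 the first value was −0.14. It was below 0 in both for 59 genes and above 0 in both for 23. The intervals with the site were wider, with a median of 1178.5 bp against 415 bp. The same comparison gave 0.03 and −0.01 for miR-206 (187 genes), −0.13 and −0.05 for miR-133 (160 genes) and −0.08 and −0.01 for let-7 (182 genes). Any interval over a 3'UTR against the others of its gene gave −0.11 and 0.01 (978 genes). Among intervals over 3'UTRs only 19 genes remained, with medians of 0.05 and −0.11. The part of width and of 3'UTR position was not tested.

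Known targets of miR-222 were a list of 17 genes, of which 14 had an exonic interval in at least 1 library and 4 an interval with the site. For comparison, 863 of 9610 protein-coding genes with an exonic interval (8.98%) had one. Known targets are generally found through a seed site, so a higher share in the list is built in, and nothing is concluded from it. The list was drawn up with earlier results of these data known. Cdkn1c, which arrests the cell cycle in differentiating muscle, had a site in its 3'UTR under an interval at chr7:143458458-143459306. Its scores were 32.9, 27.7 and 22.7 in control-IPs 1, 2 and 4, 27.1 in miR-222-IP 1 and 184 in miR-222-IP 2. In the first experiment the miR-222-IP was the lowest of 3 libraries (log2 ratio −0.56), and in the second it was the highest (2.42). The summed muscle marker score was 290 and 241 in the control-IPs and 402 in the miR-222-IP of the first experiment, and 265 in control-IP 4 and 1384 in the miR-222-IP of the second. The part of this in the Cdkn1c value was not tested.

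Ets1, a transcription factor with 2 sites, had 48.2, 52.2 and 54.1 in the control-IPs and 53.2 and 95.3 in the miR-222-IPs, with log2 ratios of −0.29 and 0.22. Bmf, a pro-apoptotic BH3-only protein, had 34.3, 21.5 and 36.03 in the control-IPs and 39.0 and 91.6 in the miR-222-IPs (log2 ratios of 0.05 and 0.75). Sod2, the mitochondrial superoxide dismutase, had 23.9 and 23.6 in control-IPs 1 and 4, no peak in control-IP 2, and 34.1 and 44.8 in the miR-222-IPs, and its site was masked. Of these 4 genes Ets1, Bmf and Sod2 had a higher raw score in the miR-222-IP than in the control-IPs in each experiment. Cdkn1c had one in the second experiment only. Unscaled, the 271 intervals called in every library also had median log2 ratios above 0, at 0.30 and 0.59. After scaling, Ets1 was below 0 in the first experiment, Bmf was above 0 in both, and Sod2 had no ratio. Cdkn1b (p27) had 1 site in its annotated exons, which was not under an interval. Its only exonic interval had scores of 46.9 and 51.9 in the miR-222-IPs and of 31.4 in control-IP 4, and no peak in control-IPs 1 and 2. Kit, Trps1 and Esr1, with 3, 1 and 2 sites, had no exonic interval. Foxo3, Ppp2r2a and Sntb1 had exonic intervals and no 7-mer in their annotated exons.

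The study chose its follow-up genes on these samples, so the samples are no independent evidence of a direction. It reports qPCR of these genes in new RISC-IP experiments, with higher levels in miR-222-IPs than in control-IPs. For Ahnak and Rbm24 it also reports western blots and luciferase assays with intact and mutated sites. Enrichment of Cdkn1b and Cdkn1c mRNA in miR-222-IPs was assessed by qPCR as well. None of those experiments is among the libraries described here. Of the 6 follow-up genes, 5 had an interval with the site. Rbm24, an RNA-binding protein of muscle splicing, had scores of 20.5 and 90.5 in the miR-222-IPs and no peak in control-IPs 1, 2 and 4. Chrng, the gamma subunit of the fetal acetylcholine receptor, and Ahnak, a giant scaffold protein, had a peak in miR-222-IP 2 alone, at 55.7 and 33.0. The Chrng site was masked, and Chrng is also among the muscle markers. Tceal9 had 47.9 in control-IP 4 and 47.0 and 110 in the miR-222-IPs. Myo10, a filopodial myosin, had 22.3 in control-IP 2 and 22.2 and 34.5 in the miR-222-IPs. In the first experiment, where the summed muscle marker score was 290 and 241 in the control-IPs and 402 in the miR-222-IP, Rbm24 and Tceal9 had a peak in the miR-222-IP and in no control-IP, Myo10 had nearly equal scores in 2 libraries, and Chrng and Ahnak had none. D1Pas1 had no exonic interval on 1 strand.

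Among other lists the share of genes with an interval with the site is given beside the median number of intervals per gene, since more intervals offer more sequence. Chromatin regulators had one in 14 of 42 genes with an exonic interval (33.3%, median of 10 intervals per gene) and adhesion and cytoskeletal linkers in 10 of 31 (32.3%, median of 7). Sarcomere genes had one in 7 of 38 (18.4%, median of 5), splicing regulators in 6 of 36 (16.7%, median of 4.5) and TGF-beta, activin and BMP genes in 4 of 25 (16.0%, median of 3). Myogenic transcription factors had one in 2 of 15 (13.3%, median of 6) and RISC and mRNA decay genes in 3 of 30 (10%, median of 5.5). Cell cycle exit genes had one in 1 of 21, Cdkn1c (4.76%, median of 2), and insulin, PI3K and FoxO genes in 1 of 28 (3.57%, median of 4). Of the lists in this paragraph, chromatin regulators and adhesion and cytoskeletal linkers had the highest shares and also the highest medians. Among the other lists the order of the shares was not that of the medians. The part of the number of intervals in these shares was not tested. The median was 2 intervals per gene over all protein-coding genes.

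Chromatin genes had the site mainly in CDS (7 of 15 intervals) or 3'UTR (5). Setd2, which methylates H3K36, had 27.3, 91.0 and 77.6 in control-IPs 1, 2 and 4 and 98.1 and 151 in the miR-222-IPs, with log2 ratios of 0.48 and 0.37. Setd5 had 49.7, 100.01 and 93.3, then 106 and 139 (0.20 and −0.02). Chd2, a remodeller with a 3'UTR 8-mer, had 60.2 and 66.9 in control-IPs 2 and 4 and 63.6 and 130 in the miR-222-IPs. The remodelling ATPase Smarca2 had 74.2 and 44.7, then 68.4 and 114. Of the 15 intervals 1, that of Kmt2c, had a peak in both miR-222-IPs and in no control-IP. That call was made in 7.85% of all intervals with the site and in 6.61% of all exonic intervals.

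Among adhesion and cytoskeletal linkers Palld, an actin-bundling protein, had 21.4 in control-IP 4 and 33.3 and 119 in the miR-222-IPs at its 3'UTR site. The integrin subunit Itgb1 had 56.9, 104 and 86.0 in the control-IPs and 90.9 and 115 in the miR-222-IPs (log2 ratios of −0.14 and −0.17). The spectrin Sptbn1 had 35.2, 36.6 and 54.1, then 67.2 and 105 (0.53 and 0.36), and both miR-222-IPs were above their control-IPs. Dst, a cytolinker, had 2 intervals with the site in CDS. The wider had 74.0 and 26.8 in control-IPs 2 and 4 and 42.8 and 70.9 in the miR-222-IPs, so that a control-IP was highest, and the narrower had 40.3 in miR-222-IP 2 alone.

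The 7 intervals of sarcomere genes had scores of 26.2 to 151 in miR-222-IP 2, where the median of all intervals with the site was 49.5. In 3 of them, those of Synpo2, Synpo2l and Ttn, named after their values were seen, this was the only peak. The only peak was that of miR-222-IP 2 in 23.5% of all intervals with the site and in 31.2% of all exonic intervals. The part of the higher muscle marker scores of that library was not tested. Tnnt3, fast skeletal troponin T, had 20.6 and 101 in the miR-222-IPs and no peak in the control-IPs over this interval, whose site was intronic. Tnnc1, slow troponin C, had 32.8, 30.6 and 26.4 in the control-IPs and 37.1 and 84.3 in the miR-222-IPs (log2 ratios of −0.16 and 1.08). For the capping protein Capza1, which is not confined to muscle, the values were 52.2, 144 and 88.8, then 72.1 and 151 (−0.71 and 0.17). Among splicing regulators Srsf7 had 55.5, 59.8 and 69.0, then 65.2 and 92.2 (−0.19 and −0.18), and Ptbp3 had 34.3, 49.8 and 50.1, then 50.7 and 51.8 (−0.07 and −0.54). Srsf11, with a CDS 8-mer, had 27.4 and 28.1 in control-IPs 2 and 4 and 39.2 and 60.5 in the miR-222-IPs.

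The remaining lists had few intervals with the site. The E protein Tcf12, a partner of MyoD, had 2 intervals with an 8-mer. One had 20.2 and 51.7 in the miR-222-IPs and no control-IP peak, and the other, in the 3'UTR, had 26.1 in control-IP 4 and 30.3 and 46.9 in the miR-222-IPs. Tead4, a Hippo pathway factor, had 50.1 in miR-222-IP 2 alone. Smad4, the common Smad, had 29.1 and 41.1 in control-IPs 2 and 4 and 45.5 and 82.7 in the miR-222-IPs. Smurf2, a ubiquitin ligase, had 23.2 in control-IP 4, then 22.7 and 31.6, and myostatin (Mstn) had 20.98 in miR-222-IP 2 alone. The poly(A)-binding protein Pabpc1 had 128, 84.3 and 130, then 129 and 115 (−0.15 and −0.76). The deadenylase scaffold Cnot1 had 34.8 and 22.2, then 33.4 and 44.0, and Dicer1 had 21.6 and 25.5 in the miR-222-IPs with no control-IP peak.

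The list of control-IP 3 spanned 427 of the 943 intervals, and 420 of them (98.4%) overlapped one of its peaks. The median width of these peaks was 88605.5 bp, and 410 were over 5000 bp wide. All 33 intervals in the span that had a peak in both miR-222-IPs and in no other control-IP overlapped a peak of control-IP 3. A peak of that width does not locate enrichment at a site.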

How the data were processed

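RISC-IP RNA of MSC myocytes was analysed from the peak lists of 4 control-IPs and 2 miR-222-IPs. Reads were aligned to mm10 with SOAPSplice by the authors. They ran macs2 on each library with its defaults, kept peaks with a −log10 p over 20, and deposited that −log10 p. The macs2 version and control track are not given in the sources used here. Peaks were merged in Python 3.11.15 (numpy 2.4.6, pandas 2.3.3) and sequences were read with pysam 0.24.0 from RefSeq GRCm38, with exons from GENCODE M21. The interval score was the highest −log10 p of the library's overlapping peaks. Without counts, neither a count model nor counting error was possible. Labels were permuted within experiments, and p was adjusted by Benjamini-Hochberg. Intervals were named from gene lists, most sites, 8-mers called in both miR-222-IPs alone, extreme ratios and highest control-only scores. Members and lists were chosen with earlier results of these data known. All 10 checks on simulated data passed. Alternatives covered threshold, merging, seed length, exon set, scaling and omission of each library. Some named intervals are not reported here.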

Additional observations from a re-analysis of the deposited data

Results flagged for a closer look

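The share of exonic peaks with the miR-222 7-mer was 51.1% in control-IP 3 and 1.98 to 2.74% in the other 3 control-IPs. The gap to the nearest control-IP was 0.984 of the range, past the critical value of 0.829 for 4 samples, and about 1 in 20 groups passes it by chance. The median peak there was 32103 bp wide, and the shares of the other 3 seed families stood apart in the same way.

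Of the 26 named intervals that every one of the 5 libraries called, 5 had a scaled miR-222-IP score outside those of the control-IPs in opposite directions in the 2 experiments. Some of the 26 were named for extreme ratios, and the same share over all intervals called in the 5 libraries was not computed. Whether 5 of 26 is unusual is therefore unknown, and the difference between experiments was not tested. The log2 ratios in the first and second experiment were −0.56 and 2.42 for Cdkn1c, −0.29 and 0.22 for Ets1 and −0.71 and 0.17 for Capza1. For the intronic sites of Tgfbr1 they were 0.13 and −0.16 in the interval of 377 bp and −0.23 and 0.32 in that of 366 bp.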

How the results depend on the processing

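Of 165 recomputed values, 119 were labelled as the same, 39 as moved and 7 as changed in sign. For the permutation tests on shares, the same meant only an unchanged sign and an unchanged side of 0.05. Since these tests cannot reach 0.05, that label does not measure how stable their differences were. The other values were judged against an error or limit set for them. A score over 50 left 468 intervals, of which 5.98% had a peak in both miR-222-IPs and no control-IP and 20.3% a peak in all libraries, with 59.6% of sites in 3'UTRs. The 6-mer gave 4057 intervals, and merging with control-IP 3 gave 1462. With the site inside an exon, 65.2% of sites lay in 3'UTRs and 31.8% of intervals had a peak in all libraries, and with a peak over the site 17.4% had. With control-IP 3 added, 0% of the intervals in its span had a peak in the miR-222-IPs alone, since its wide peaks overlapped 98.4% of them. The excess of intervals with the site over others of the same widths was 0.633 to 3.497 percentage points under the other alternatives. With control-IP 3 it was −0.221, where almost no interval could keep the call, so that value cannot be set beside the others. Leaving out each library in turn gave 9.38 to 31.7% for calls in the remaining miR-222-IPs alone (10% without miR-222-IP 2, 31.7% without miR-222-IP 1, 13.02% and 13.8% without control-IPs 2 and 4) and 29.3 to 39.4% for all libraries.

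Median log2 ratios in the first and second experiment were 0.0199 and 0.0799 for 8-mers, 0.30 and 0.59 without scaling, −0.30 and −0.64 with scaling to the summed score, and −0.0969 and 0.0772 with the lowest listed score filled in. The sign thus follows the scaling, and only the comparison with all exonic intervals can be read. The same-gene difference was −0.14 in the first experiment without either control-IP, and 0.0454 and −0.11 within 3'UTRs.

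For the share of peaks with the 7-mer, permuting without the replicate block gave 0.218 points (exact permutation p = 0.6), and 0.100, 0.307 and 0.171 against miR-206, miR-133 and let-7. No call changed, and neither design can reach 0.05. Control-IP 2 and miR-222-IP 2 share a number but no experiment. With control-IP 3 the differences became −11.99, −0.115, −1.21 and −0.267. Against miR-206 the sign also changed with a score over 50 (−0.106) and with 8-mers (−0.00677). With each library left out, the differences ranged from 0.0431 to 0.425, and from 0.00104 to 0.247, 0.158 to 0.508 and −0.0315 to 0.422 against the 3 families. The omission of masked sites, the restriction to wholly exonic intervals and to 3'UTRs, and the addition of control-IP 3 to the calls were chosen after seeing the data. The cause of these changes was not tested.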
